A study of Mus musculus with 8 samples.

Results

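The 9 genes described here encode transcription factors that maintain Müller glia, the glial cells that span the whole depth of the retina, or mark retinal progenitor cells. They are Sox2, Sox9, Lhx2, Hes1, Hes5, Pax6, Nfia, Nfib and Nfix. They were chosen by symbol from a table of 24860 genes, in which all 9 were found. 8 of them had a mean of at least 1 FPKM, the level above which 12858 genes were tested, and Hes5 lay below it. FPKM scales the fragments of a gene to its length and to the sequencing depth. It does not correct for differences in RNA composition between libraries, so comparisons between libraries were also made with other scalings.

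RNA sequencing was done on 8 libraries of mouse retina. 4 libraries are labelled AAV2-shCX36, an adeno-associated virus of serotype 2 carrying a short hairpin RNA against connexin 36, which forms electrical synapses between retinal neurons. The control libraries, also 4, are labelled AAV2-scramble, or AAV2-shScramble in their descriptions, so the vector is common to both groups. The sources used here do not give strain, genotype, age, injury, time after injection, the promoter of the hairpin, how cells were isolated or any pooling of animals. The design text speaks of different mice but ties no library to an animal, so p-values measure the spread between libraries, which may be technical.

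The labels name retinal ganglion cells as the cell type, yet transcripts of other retinal cells were abundant in every library. The 20 rod and cone markers summed to between 2987 and 7416 FPKM, the 22 ganglion cell markers to between 2516 and 4505, and the 28 Müller glia markers to between 749 and 1815. Gjd2, the gene of connexin 36, ranged from 14.0 to 17.0 FPKM in AAV2-shCX36 and from 17.4 to 38.7 in AAV2-scramble (limma adjusted p = 0.148), and its exons overlap those of an opposite-strand gene. AAV2-scramble 3 and 4, at 17.4 and 18.2 FPKM, were close to the hairpin libraries, and the log2 difference of -0.70 became -0.19 (adjusted p = 0.245) with those controls alone and -1.21 (adjusted p = 0.000763) with AAV2-scramble 1 and 2 alone. The control libraries differed among themselves: AAV2-scramble 1 and 2 had more oligodendrocyte, bipolar and microglial transcript than AAV2-scramble 3 and 4. Results that rest on them are therefore also given without each of these pairs.

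As background, Müller glia keep much of the transcription factor set of the progenitors that made them. Sox2, Sox9 and Lhx2 hold these cells in a quiescent glial state, and Hes1 and Hes5 are repressors switched on by Notch signalling that block neuronal fate. The nuclear factor I proteins Nfia, Nfib and Nfix act late in retinal development and restrain Müller cells from returning to the cell cycle. Pax6 is a master regulator of eye development that adult ganglion, amacrine and horizontal cells also express. In the adult retina Sox2 also marks cholinergic amacrine cells, and Sox9 also marks astrocytes.

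The 3 factors whose AAV2-shCX36 values all lay on one side of the control values were Lhx2, Hes5 and Pax6. The groups separated in 15.9% of all tested genes, a share that does not cover Hes5. The 250 bases before annotated starts of these 3 factors are shown (the first of 2 listed for Lhx2, both for Pax6). They are shown because these are the members whose groups separate and the Notch response of Hes5 is read through such a region. The sequences are from RefSeq on GRCm38.p6, plus strand, and 6 of the 9 genes matched that table. Capitals mark matches to GTGGGAA (bound by RBPJ, the DNA-binding partner of Notch), CACNAG (the N box bound by Hes repressors) or ACAAAG (a core bound by SOX factors), searched on both strands.
Hes5 chr4:154960673-154960922: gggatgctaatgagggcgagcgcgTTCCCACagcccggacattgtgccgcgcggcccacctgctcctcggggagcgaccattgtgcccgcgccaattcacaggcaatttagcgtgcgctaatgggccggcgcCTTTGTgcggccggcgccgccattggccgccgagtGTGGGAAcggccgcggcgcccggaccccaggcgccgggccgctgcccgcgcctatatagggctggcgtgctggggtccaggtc
Lhx2 chr2:38339031-38339280: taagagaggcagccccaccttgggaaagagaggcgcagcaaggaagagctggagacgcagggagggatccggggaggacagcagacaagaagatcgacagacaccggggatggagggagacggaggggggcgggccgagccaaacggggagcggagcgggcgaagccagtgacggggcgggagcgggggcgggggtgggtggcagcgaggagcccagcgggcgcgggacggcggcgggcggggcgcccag
Pax6 chr2:105668646-105668895: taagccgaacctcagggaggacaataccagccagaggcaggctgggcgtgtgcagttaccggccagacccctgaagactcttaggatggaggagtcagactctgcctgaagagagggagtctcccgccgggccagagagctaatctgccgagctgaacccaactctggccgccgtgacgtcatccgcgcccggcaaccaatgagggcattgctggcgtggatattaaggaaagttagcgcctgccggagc
Pax6 chr2:105682213-105682462: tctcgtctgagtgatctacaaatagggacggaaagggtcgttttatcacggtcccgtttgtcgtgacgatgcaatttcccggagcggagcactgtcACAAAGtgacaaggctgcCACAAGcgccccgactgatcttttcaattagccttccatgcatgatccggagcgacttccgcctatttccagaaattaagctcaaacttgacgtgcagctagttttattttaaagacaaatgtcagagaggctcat

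The Hes5 sequence held GTGGGAA on both strands, with one match starting 83 bases and the other 226 bases before the start, and one ACAAAG on the opposite strand. Of 32851 RefSeq promoter windows of 250 bases, 5.42% held GTGGGAA at least once and 0.161% held it 2 or more times. CACNAG was in 36.7% and ACAAAG in 16.5% of them. The Lhx2 window and the first Pax6 window held none of the 3 motifs, and the second Pax6 window held one CACNAG and one ACAAAG. None of the matches overlapped another, and these are matches of letters only.

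Pax6 stood far above the other factors. Its mean was 55.5 ± 2.50 FPKM (SD, n = 4) in AAV2-scramble and 65.6 ± 1.58 in AAV2-shCX36, and its level exceeded that of 93.2% of tested genes. In AAV2-scramble the order then ran Nfix, Sox2, Hes1, Lhx2, Nfia, Sox9, Nfib and Hes5, from 7.35 down to 0.723 FPKM, and each neighbouring pair below Pax6 overlapped in range. In AAV2-shCX36 it ran Hes1, Nfix, Sox2, Nfia, Lhx2, Sox9, Nfib and Hes5, from 5.36 down to 0.343 FPKM. There too neighbours below Pax6 overlapped, except that every Nfib value lay above every Hes5 value. The per-library plot of the 9 factors shows these levels.

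**Figure D1:**
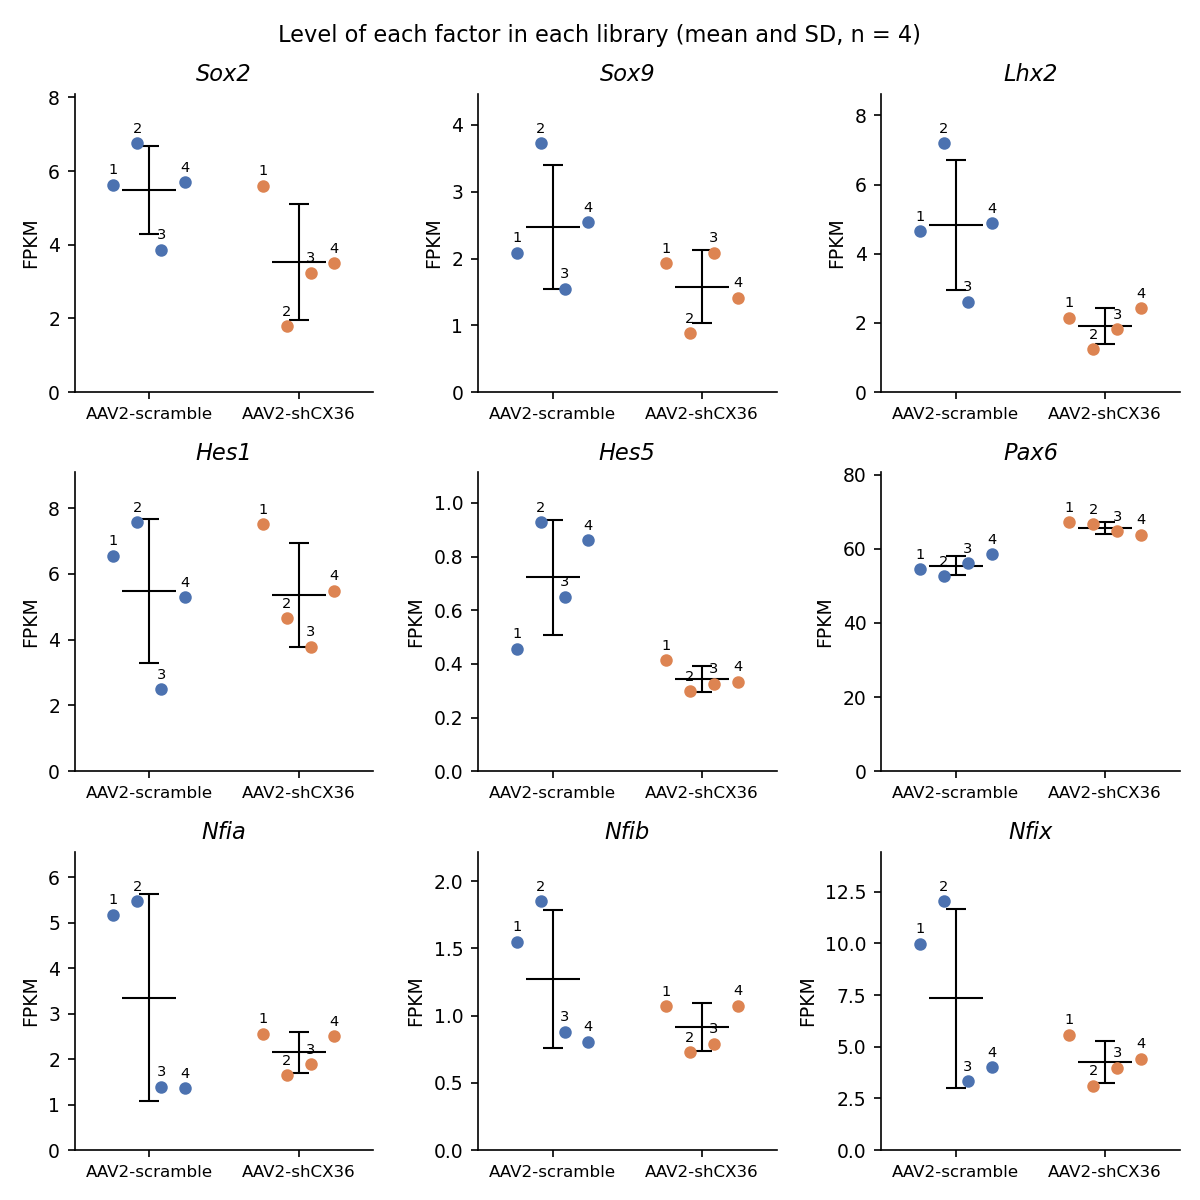
FPKM of each factor (y axis, starting at 0, with its own scale per panel) in the 4 AAV2-scramble and 4 AAV2-shCX36 libraries. Points are libraries with their replicate number, and the bar and whiskers are the mean and SD. The groups separate for Lhx2, Hes5 and Pax6, and AAV2-scramble 1 and 2 stand above the other 6 libraries for Nfia, Nfib and Nfix.

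Of the 8 tested factors, 1 passed an adjusted p of 0.05 in limma over all genes, and it was Pax6, which rose. Over all 12858 genes the same rule called 4.76%, of which 2.24% were higher and 2.52% lower. The groups did not overlap in 2 of the 8, Pax6 higher and Lhx2 lower, against 15.9% of all tested genes, 8.85% higher and 7.05% lower. The median log2 difference of the 8 was -0.37, and 6 of them were lower, whereas the median over all tested genes was 0.01. This median depended on the controls: it was 0.10 when AAV2-scramble 1 and 2 were omitted, -0.66 when AAV2-scramble 3 and 4 were, and between -0.55 (AAV2-scramble 3 omitted) and -0.18 (AAV2-scramble 2 omitted) for single libraries. Each log2 difference is the AAV2-shCX36 mean less the control mean of log2(FPKM + 1), a scale that understates the change of low genes.

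Lhx2, a LIM homeobox factor needed for eye formation and for Müller glial identity, showed the largest difference of the 8 tested factors. The gene lies on GRCm38 chromosome 2, 38339281 to 38369733, plus strand. Its level was 4.65, 7.19, 2.61 and 4.88 FPKM in AAV2-scramble 1 to 4. In AAV2-shCX36 1 to 4 it was 2.16, 1.25, 1.81 and 2.43 FPKM. All 4 AAV2-shCX36 values were below the lowest control, AAV2-scramble 3. The mean was 39.6% of the control mean, and the log2 difference of -0.96 ± 0.24 (SE) was larger in size than that of all but 1.52% of tested genes.

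Lhx2 missed the threshold, with a limma adjusted p of 0.0532, and fell on either side of it as settings changed. The adjusted p was 0.0282 without AAV2-scramble 3 and between 0.0618 and 0.156 without any other single library. It was 0.0445 with median-of-ratios scaling and 0.0361 with quantile normalization. Omission of AAV2-scramble 1 and 2 gave a log2 difference of -0.68 (adjusted p = 0.115), and omission of AAV2-scramble 3 and 4 gave -1.24 (adjusted p = 0.0055), so the direction did not depend on either pair of controls. In bulk retina, fewer cells of a type and less RNA per cell cannot be told apart, here and for every factor below.

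Transcripts of Müller glia moved in the same libraries. Of 28 Müller markers 25 were tested, 7 were higher, 18 were lower, and 8 fell past the threshold in limma while none rose, where 2.52% of all genes fell. Their median log2 difference was -0.47, or -0.25 without AAV2-scramble 2 and -0.31 without AAV2-shCX36 2. Omitting AAV2-scramble 1 and 2 left 5 markers that fell, where 388 of all 12858 genes did. With AAV2-scramble 3 and 4 omitted 12 markers fell, where 1905 of all genes did. With AAV2-shCX36 1 and 4 omitted it was 3 markers, where 30 of all genes fell. Single omissions gave 4 to 10 markers, where 70 to 589 of all genes fell. The summed level of the Müller markers was 1081 to 1815 FPKM in AAV2-scramble and 749 to 1185 in AAV2-shCX36. None of the 28 was at 0 in all libraries. The largest fall was in Spc25, a kinetochore gene placed in that list, from 15.1 to 28.0 FPKM to 3.59 to 5.43 (adjusted p = 0.00112). Glul, glutamine synthetase, went from 313 to 535 FPKM in controls to 128 to 213 (adjusted p = 0.00897), and Rlbp1, the retinaldehyde-binding protein, from 26.3 to 47.5 to 7.21 to 17.6 (adjusted p = 0.0184, and 0.0560 without AAV2-shCX36 3). Their part in the Lhx2 difference was not tested.

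Lhx2 was also set against the Müller markers of its own library. The measure is its log2 level minus the mean log2 level of the 25 tested Müller markers, a description with no test. It was -2.04, -1.96, -2.31 and -1.79 in AAV2-scramble 1 to 4. It was -2.78, -2.53, -2.42 and -2.43 in AAV2-shCX36 1 to 4. These groups again did not overlap, whereas on the same measure the groups overlapped for the other 8 factors. The overlap was narrow for Pax6, at 0.75 to 1.67 in AAV2-scramble and 1.66 to 2.38 in AAV2-shCX36. It was also narrow for Hes1, at -2.36 to -1.62 and -1.65 to -1.19. The group means differed by 0.69 for Pax6 and 0.47 for Hes1, and by -0.51 for Lhx2. For low factors such as Hes5 and Nfib an overlap says little, because the added 1 shrinks their change more than that of the markers. The log2 difference of Hes5 was -0.35 with a pseudocount of 1 and -0.86 with 0.1. The marker mean includes 7 markers with higher values, and 6 of the 25 markers, Glul and Rlbp1 among them, had a log2 difference further below 0 than that of Lhx2.

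Sox2, a high-mobility-group factor of neural progenitors and Müller glia, lies on chromosome 3, 34650405 to 34652461, plus strand, inside the long noncoding gene Sox2ot with no shared exon. It had 5.63, 6.76, 3.87 and 5.69 FPKM in AAV2-scramble 1 to 4. AAV2-shCX36 1 to 4 had 5.60, 1.79, 3.24 and 3.51 FPKM. Libraries 2 to 4 of AAV2-shCX36 were below every control, but library 1 was close to controls 1 and 4. The log2 difference was -0.56 ± 0.24 (SE), with a limma adjusted p of 0.215, between 0.123 and 0.425 with single libraries left out. Sox2ot itself overlapped between groups, at 0.355 to 2.85 FPKM in AAV2-scramble and 0.493 to 1.58 in AAV2-shCX36.

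Markers of cholinergic amacrine cells, which also contain Sox2, were highest in the AAV2-shCX36 library with the most Sox2. Chat, choline acetyltransferase, had 1.35 FPKM in AAV2-shCX36 1 and 0.227 to 0.493 in the rest of its group, against 0.1005 to 0.431 in AAV2-scramble. Slc18a3, the vesicular acetylcholine transporter, had 1.27 FPKM in that library and 0.246 to 0.463 in the rest of its group, against 0 to 0.425 in AAV2-scramble. Both genes lay below the tested level, so these values are a description only. AAV2-scramble 1, 2 and 4 had slightly more Sox2 than AAV2-shCX36 1, at 5.63, 6.76 and 5.69 against 5.60 FPKM. Chat was at 0.431, 0.169 and 0.1005 FPKM in these controls. The part of these markers in the Sox2 values was not tested.

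Sox9, which drives glial fate and marks Müller glia and astrocytes, lies on chromosome 11, 112782224 to 112787760, plus strand. AAV2-scramble 1 to 4 had 2.09, 3.72, 1.55 and 2.54 FPKM. AAV2-shCX36 1 to 4 had 1.93, 0.886, 2.09 and 1.41 FPKM. The groups overlapped, with AAV2-scramble 2 the highest and AAV2-shCX36 2 the lowest library. The log2 difference was -0.42 ± 0.22 (SE; limma adjusted p = 0.286).

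Astrocyte markers did not share one direction. Of 12, 9 were tested, 5 were higher and 4 lower, and none passed in limma. An unadjusted p under 0.05 was found in 2, both higher, where 22.6% of all tested genes had one. One of the 2 was Gfap, the intermediate filament of astrocytes and reactive Müller cells, at 0.339 to 2.83 FPKM in AAV2-scramble and 2.30 to 5.65 in AAV2-shCX36 (adjusted p = 0.149). The astrocyte factor Pax2 was at 0.0494 to 0.250 FPKM over all libraries. The summed level of the 12 markers was 128 to 151 FPKM in AAV2-scramble and 125 to 154 in AAV2-shCX36, and their part in the Sox9 values was not tested.

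The groups separated for Hes5 and overlapped for Hes1, the other Notch effector. Hes5 (chromosome 4, 154960923 to 154962371, plus strand) was the least abundant factor, at 0.456, 0.928, 0.650 and 0.860 FPKM in AAV2-scramble 1 to 4. It was at 0.413, 0.297, 0.327 and 0.334 FPKM in AAV2-shCX36 1 to 4. All 4 AAV2-shCX36 values lay below the lowest control, AAV2-scramble 1. Of the tested genes 7.05% were lower in this way, but Hes5 was not among them. The matching share of genes below the tested level is not given here, so how unusual this separation is stays unknown. The mean was 47.4% of the control mean.

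Because Hes5 lay under the level at which genes were tested, it was compared with a two-sided exact permutation test. The log2 difference was -0.35, with an exact permutation p = 0.0286 over 70 relabellings, a value that no design of this size can go below. With no filter on low values, limma gave it an adjusted p of 0.126. An approximate conversion from FPKM put Hes5 at 24 to 46 fragments per AAV2-scramble library and 15 to 21 per AAV2-shCX36 library. Its exons overlap those of the antisense gene Gm20421, and the sources used here do not say whether strand entered the counting.

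Hes1 (chromosome 16, 30064384 to 30067796, plus strand) did not separate the groups. AAV2-scramble 1 to 4 had 6.55, 7.57, 2.50 and 5.29 FPKM. AAV2-shCX36 1 to 4 had 7.50, 4.66, 3.78 and 5.49 FPKM. The highest and the lowest value were both in controls, and the log2 difference was 0.02 ± 0.28 (SE; limma adjusted p = 0.980). Its sign turned to -0.25 without AAV2-scramble 3 (adjusted p = 0.473) and to -0.13 without AAV2-shCX36 1 (adjusted p = 0.838). The ratio of Hes5 to Hes1 was 0.0696, 0.123, 0.260 and 0.163 in AAV2-scramble 1 to 4 and 0.0550 to 0.0864 in AAV2-shCX36, so it overlapped through AAV2-scramble 1.

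The rest of the Notch pathway held no call. Of 38 ligands, receptors, processing enzymes and targets 34 were tested, 9 were higher and 25 lower, and their median log2 difference was -0.09. None passed in limma over all genes, and 7 had an unadjusted p under 0.05, with 2 higher and 5 lower, where 22.6% of all tested genes had one. The median was 0.03 without AAV2-scramble 1 and 2, with 1 gene up and 0 down past the threshold, and -0.24 without AAV2-scramble 3 and 4, with 1 up and 12 down. In these fits 7.33% and 26.8% of all tested genes were called. With single libraries left out, only the set without AAV2-scramble 4 gave calls, 4 genes lower, where 589 of all 12858 genes were lower. Jag1, a Notch ligand, had 4.73 to 7.14 FPKM in AAV2-scramble and 3.39 to 4.69 in AAV2-shCX36, with no overlap (log2 -0.45, adjusted p = 0.0939, and 0.0447 without AAV2-scramble 4). The receptor gene Notch2 had 2.08 to 4.35 and 1.61 to 2.14 FPKM, with overlap (log2 -0.45, adjusted p = 0.158, and 0.0430 without AAV2-scramble 4). Its log2 difference was -0.73 (adjusted p = 0.00676) when AAV2-scramble 3 and 4 were omitted and -0.18 (adjusted p = 0.440) when AAV2-scramble 1 and 2 were.

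Pax6 lies on chromosome 2, 105668900 to 105697364, plus strand. It had 54.5, 52.7, 56.1 and 58.5 FPKM in AAV2-scramble 1 to 4. AAV2-shCX36 1 to 4 had 67.2, 66.6, 64.7 and 63.8 FPKM. Every AAV2-shCX36 library was above every control, and the spread within each group was small. The group mean reached 118% of that in controls. On the log2 scale it rose by 0.24 ± 0.05 (SE), with a limma adjusted p of 0.0380.

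The Pax6 call rested on the full set of libraries and on the scaling. Among the 8 fits that left out one library, the one lacking AAV2-scramble 4 kept the call (adjusted p = 0.0267) and the other 7 lost it. Leaving out AAV2-scramble 1, 2 or 3 gave an adjusted p of 0.0903, 0.0559 or 0.0801. Leaving out AAV2-shCX36 1, 2, 3 or 4 gave 0.120, 0.119, 0.0963 or 0.0756. The value was 0.0894 with median-of-ratios scaling and 0.0563 with quantile normalization. The log2 difference itself stayed between 0.19 and 0.29 over the 23 alternatives, among them 0.19 without AAV2-scramble 1 and 2 (adjusted p = 0.0643).

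Other cell types that express Pax6 had values of both directions. Of 22 ganglion cell markers, all tested, 19 were higher and 3 lower, with a median of 0.31. None passed in limma. At an unadjusted p under 0.05 there were 8 higher and 1 lower, where 22.6% of all tested genes had one. Omitting AAV2-scramble 3 and 4 gave 18 calls, all higher, and a median of 0.58. Of all tested genes 26.8% were called in that fit, 1536 higher and 1905 lower. Omitting AAV2-scramble 4 alone gave 4 calls, all higher, where 573 of all 12858 genes rose. Omitting AAV2-scramble 1 and 2 gave a median of 0.07 and 1 call, lower, where 388 of all genes fell. Omitting AAV2-scramble 1 alone also gave 1 call, lower, where 292 of all genes fell. Omitting AAV2-scramble 2 alone gave a median of 0.16. Of 16 tested amacrine markers 6 were higher and 10 lower, and Tfap2b, an amacrine transcription factor, fell from 15.6 to 17.2 FPKM to 9.498 to 13.1 (adjusted p = 0.0176, and 0.0553, 0.0557 and 0.0589 without AAV2-scramble 3, AAV2-shCX36 2 and AAV2-shCX36 3). Of 8 tested horizontal cell markers 7 were lower, and Calb1, calbindin, fell from 87.2 to 95.7 FPKM to 53.2 to 75.8 (adjusted p = 0.0472, between 0.0522 and 0.131 without any single library, so the call was lost each time).

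Summed levels of these markers in AAV2-scramble and AAV2-shCX36 were 2516 to 4444 and 4191 to 4505 FPKM for ganglion cells, 1584 to 2935 and 2682 to 2884 for amacrine cells, and 248 to 267 and 181 to 257 for horizontal cells. Calb2, calretinin, made up 86.9% to 92.6% of the amacrine sum, and the other amacrine markers summed to 208 to 229 FPKM in AAV2-scramble and 211 to 229 in AAV2-shCX36. Lens and pigment epithelium, which also use Pax6, had a summed marker level of 14.0 to 23.3 FPKM in AAV2-scramble and 25.5 to 338 in AAV2-shCX36. AAV2-shCX36 1 and 4 held the most of it, at 169 and 338 FPKM, with Pax6 at 67.2 and 63.8 FPKM. AAV2-shCX36 2 and 3 held 25.5 and 30.8 FPKM, with Pax6 at 66.6 and 64.7 FPKM. The higher sum was mostly lens crystallin. Cryaa had means of 2.89 FPKM in AAV2-scramble and 90.5 in AAV2-shCX36, and Crybb2 0.538 and 19.3. The pigment epithelium genes Rpe65 and Lrat had 0.00338 and 0.546 FPKM in AAV2-scramble and 0 and 0.532 in AAV2-shCX36. Higher means were found for Tyrp1 (0.0929 in AAV2-scramble and 0.543 in AAV2-shCX36), Ttr (0.256 and 0.817) and Dct (0.114 and 0.327). Lower means were found for Pmel (0.196 and 0.0970) and Rgr (0.109 and 0.0538). Of 11 markers of this list below the tested level, all of these among them, 7 were higher and 4 lower. No marker of these lists was at 0 in all libraries, and their part in the Pax6 difference was not tested. The antisense gene Pax6os1, which shares no exon with Pax6, had 4.24 to 6.54 FPKM in AAV2-scramble and 3.66 to 5.73 in AAV2-shCX36.

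The nuclear factor I genes divided the controls instead of the groups. Nfia (chromosome 4, 97772734 to 98118874, plus strand) had 5.18, 5.47, 1.39 and 1.37 FPKM in AAV2-scramble 1 to 4. AAV2-shCX36 1 to 4 had 2.56, 1.64, 1.89 and 2.51 FPKM. All 4 of these values lay between the high and the low control pair. Nfix (chromosome 8, 84699876 to 84800344, minus strand) had 9.99, 12.03, 3.34 and 4.02 FPKM in AAV2-scramble 1 to 4. In AAV2-shCX36 1 to 4 it had 5.58, 3.12, 3.99 and 4.42 FPKM, below AAV2-scramble 1 and 2 and around AAV2-scramble 3 and 4.

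Nfib (chromosome 4, 82290173 to 82705750, minus strand) was the lowest of the family, with 1.55, 1.85, 0.880 and 0.805 FPKM in AAV2-scramble 1 to 4. AAV2-shCX36 1 to 4 had 1.07, 0.728, 0.793 and 1.07 FPKM. AAV2-scramble 1 and 2 were again the highest libraries. The log2 differences were -0.31 ± 0.35 (SE) for Nfia, -0.22 ± 0.17 for Nfib and -0.52 ± 0.35 for Nfix, with limma adjusted p of 0.634, 0.473 and 0.401. Exons of Nfia overlap those of E130114P18Rik, and exons of Nfix overlap those of Lyl1 and G430095P16Rik, on the opposite strand.

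Leaving out either pair of controls turned or enlarged these differences. Without AAV2-scramble 3 and 4 the log2 differences were -1.02, -0.50 and -1.20 for Nfia, Nfib and Nfix, and all 3 fell past the threshold (limma adjusted p = 0.00353, 0.0324 and 0.00378). With Lhx2 and Pax6 that made 5 of 8 factors called, where 26.8% of all tested genes were called in that fit. Without AAV2-scramble 1 and 2 the 3 differences were 0.39, 0.05 and 0.16 (adjusted p = 0.162, 0.861 and 0.633), and none of the 8 factors was called in limma, where 7.33% of all genes were. None was called without AAV2-shCX36 1 and 4 either, where 0.824% of all genes were. The plot of differences with and without pairs of controls shows the sign change of these 3 genes and of Hes1, and the constant sign of Sox2, Sox9, Lhx2 and Pax6.

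**Figure D2:**
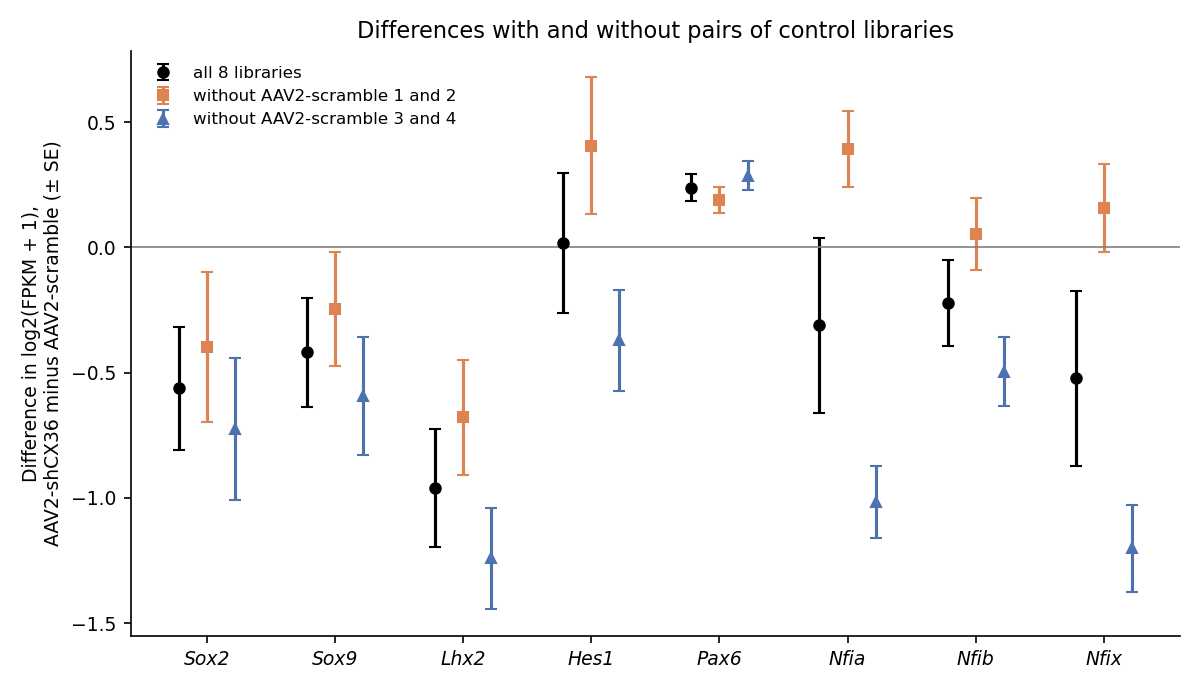
Difference in log2(FPKM + 1), AAV2-shCX36 minus AAV2-scramble (y axis, points with SE from limma), for the 8 tested factors, with all libraries and without each pair of controls. Nfia, Nfib and Nfix are at -1.02, -0.50 and -1.20 without AAV2-scramble 3 and 4 and at 0.39, 0.05 and 0.16 without AAV2-scramble 1 and 2, while Lhx2 stays below 0 and Pax6 above it.

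Transcripts of other cell types followed the same split of the controls. The mean log2 level of the 7 tested oligodendrocyte markers, of 12, was 2.93 and 4.49 in AAV2-scramble 1 and 2 and 0.99 to 1.27 in the other 6 libraries. Their summed level was 12.2 to 208 FPKM in AAV2-scramble and 12.7 to 15.5 in AAV2-shCX36. Mbp, myelin basic protein, had 9.13 and 21.9 FPKM in AAV2-scramble 1 and 2 and 3.55 to 4.53 elsewhere. The 18 bipolar markers had a mean log2 level of 4.68 and 4.73 in those controls and 3.38 to 4.04 elsewhere, and the 11 tested vascular markers had 3.34 and 3.70 against 1.55 to 3.37, so AAV2-shCX36 4 was level with AAV2-scramble 1 there. No marker of these lists was at 0 in all libraries, and their part in the nuclear factor I values was not tested.

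**Figure D3:**
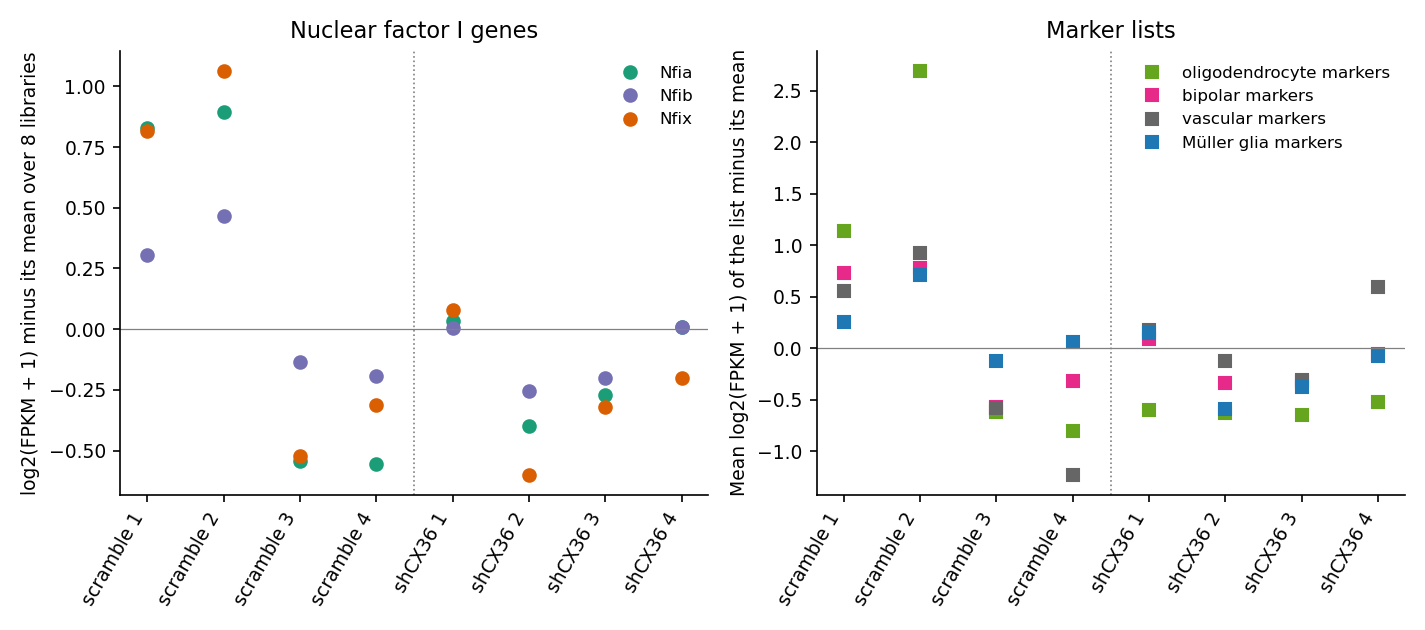
Left, log2(FPKM + 1) of Nfia, Nfib and Nfix minus its own mean over the 8 libraries (y axis) for each library (x axis). Right, the mean log2(FPKM + 1) of 4 marker lists, centred in the same way. Points are libraries, and AAV2-scramble 1 and 2 hold the highest values of the 3 genes and of the oligodendrocyte, bipolar and Müller glia lists, while for the vascular list AAV2-shCX36 4 is level with AAV2-scramble 1.

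The fourth family member, Nfic, was named after its values were seen, for comparison. It had 35.1 to 39.2 FPKM in AAV2-scramble and 40.2 to 45.9 in AAV2-shCX36, with no overlap (log2 0.22, limma adjusted p = 0.0871). Nfic made up 68.2% and 64.4% of the summed FPKM of the 4 genes in AAV2-scramble 1 and 2. Its share was 86.2% and 87.5% in AAV2-scramble 4 and 3, and 82.4% to 89.3% in AAV2-shCX36. The summed level of the 4 genes was 44.8 to 54.4 FPKM over the controls and 48.2 to 52.2 in AAV2-shCX36.

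The profiles of the 9 factors over the 8 libraries were compared by the root mean square distance between log2 levels centred on their own means. The closest pair was Nfia and Nfix at 0.15 log2 units, and the next was Sox2 and Sox9 at 0.23. The farthest was Pax6 and Lhx2 at 0.70. Hes1 and Hes5 were 0.44 apart. Low genes lie close to others on this scale, because log2(FPKM + 1) compresses their variation.

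For the 3 tested factors that varied most, the nearest profiles among all tested genes were also found. Nearest to Lhx2 were Sox8 at 0.13, a close relative of Sox9, Kcnj10 at 0.13, the main potassium channel of Müller glia, and Col2a1 at 0.17. Sox8 had 2.39 to 6.97 FPKM in AAV2-scramble and 0.781 to 2.08 in AAV2-shCX36 (log2 -1.02, limma adjusted p = 0.0603). Kcnj10 fell from 3.49 to 7.82 FPKM to 1.36 to 2.64 (adjusted p = 0.0372, up to 0.107 with single libraries left out, passing only without AAV2-scramble 3 or 4). Among the nearest to Nfix were Traf5 and Smad3, at 0.10 and 0.12, and nearest to Nfia were Smad3, Plod2 and Fndc1, at 0.08 each.

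Among other factors of Müller glia and progenitors, Rax fell. Of 42 such genes 28 were tested, 10 were higher and 18 lower, their median was -0.05, and Rax was the only call. Omitting AAV2-scramble 3 and 4 gave 3 calls up and 10 down with a median of -0.36, where 26.8% of all tested genes were called. Omitting AAV2-scramble 1 and 2 gave 2 down with a median of 0.09, where 7.33% of all tested genes were called. The median was also above 0 without AAV2-scramble 1 (0.01) or AAV2-scramble 2 (0.03). Without AAV2-scramble 3, 2 genes fell, where 111 of all 12858 genes did. Rax, a homeobox factor of retinal progenitors that photoreceptors and Müller glia retain, had 34.8, 46.3, 42.9 and 39.7 FPKM in AAV2-scramble 1 to 4. It had 25.2, 19.6, 23.5 and 24.4 FPKM in AAV2-shCX36 1 to 4, with no overlap (log2 -0.79 ± 0.10 SE, limma adjusted p = 0.00639). It passed with each single library left out, at an adjusted p of up to 0.0264. Of 20 rod and cone markers, in the same libraries, all were lower and 12 fell, where 2.52% of all tested genes fell. The number was 3 without AAV2-scramble 3, 18 without AAV2-scramble 1, and 2 without AAV2-shCX36 1 and 4. Over all 12858 genes 111, 292 and 30 fell in these fits. Summed levels of these markers were 5006 to 7416 FPKM in AAV2-scramble and 2987 to 4412 in AAV2-shCX36. The part of these markers in the Rax difference was not tested.

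The neurogenic and reprogramming list gave a single call with all libraries. Of 21 genes 20 were in the table and 9 were tested, with 4 higher and 5 lower and a median of -0.17. Omitting AAV2-scramble 1 and 2 gave a median of 0.32 with 3 calls up and 1 down, and omitting AAV2-scramble 3 and 4 gave -0.31 with 2 up and 3 down. Of all tested genes 7.33% and 26.8% were called in these fits. A second gene was called, lower, without AAV2-scramble 1 or AAV2-scramble 4, where 292 and 589 of all 12858 genes were lower. Stat3, the cytokine-activated factor that takes part in Müller cell reactivity, rose from 19.3 to 25.6 FPKM to 33.2 to 46.2 (log2 0.81 ± 0.11 SE, limma adjusted p = 0.00807) and passed with each single library left out.

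Cell cycle genes moved in both directions. Of 33 genes 17 were tested, with 6 higher and 11 lower and a median of -0.12, which turned to 0.02 when AAV2-scramble 2 and to 0.08 when AAV2-scramble 1 and 2 were omitted. Of the 16 below the tested level, 15 had a higher mean in AAV2-shCX36 and 1 a lower one, and in 6 all hairpin libraries were above all controls, against 3.24% of the 12002 detected genes below that level. Mcm6, a subunit of the replication helicase, rose from 1.04 to 1.195 FPKM to 1.89 to 2.09 (log2 0.51 ± 0.09 SE, limma adjusted p = 0.0190). Ccnd3, cyclin D3, which is found in Müller glia, fell from 10.3 to 13.3 FPKM to 7.88 to 9.05 (log2 -0.38 ± 0.09, adjusted p = 0.0423). Mcm6 lost the call without AAV2-scramble 3 or AAV2-shCX36 1, 2 or 3 (adjusted p of up to 0.0678). Ccnd3 kept it only without AAV2-scramble 4 and lost it without any other single library (adjusted p of up to 0.129). The plot of differences by gene list places these lists beside the factors.

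**Figure D4:**
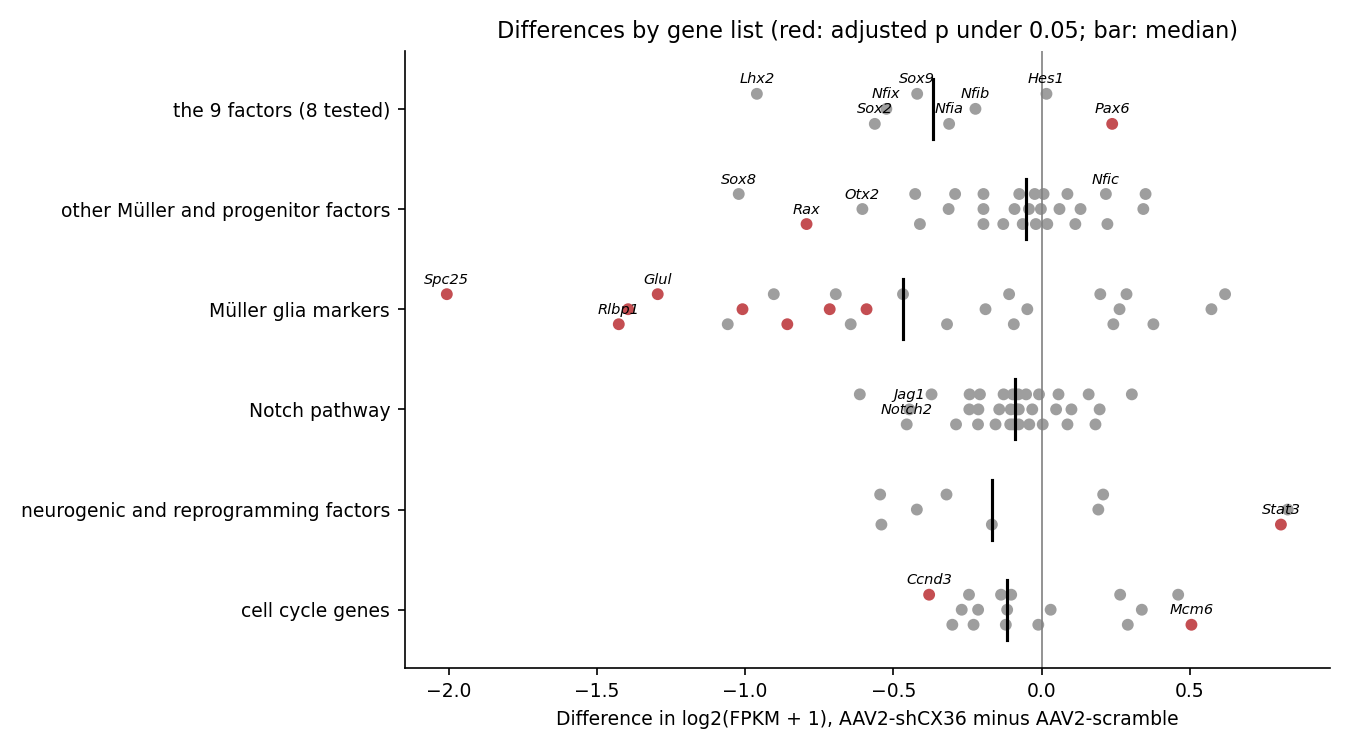
Difference in log2(FPKM + 1), AAV2-shCX36 minus AAV2-scramble (x axis), for each tested gene of 6 lists (rows, points spread vertically for legibility). Red points passed an adjusted p of 0.05 in limma, and black bars are list medians, at -0.37 for the 8 tested factors, -0.05 for other factors, -0.47 for Müller markers and -0.09 for the Notch pathway. When AAV2-scramble 1 and 2 are omitted these medians are 0.10, 0.09, -0.32 and 0.03.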

How the data were processed

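Per the labels' protocols, retinal total RNA was isolated with a QIAGEN column kit, and reads of 150 bp were taken from both ends on an Illumina instrument. The submitters' processing notes name fastp, HISAT2, HTSeq, R 3.2.0 and DESeq2 and the builds GRCm38 and mm10. The annotation and the strand setting of the counting are not given in the sources used here. The authors deposited FPKM for 24860 symbols in 8 libraries. Raw counts were not used here, so no count model was run. Columns were matched to samples by name, with 0 unmatched value columns, and no pair of libraries held identical values.

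The steps between low FPKM values of single-exon genes put depth at about 35600000 to 38900000 fragments per library. Only 27.8% to 39.2% of these values lay within 0.05 of a whole count, so depth and fragment numbers are approximate and no counting interval is given. Fragment numbers used the joined exon length of a gene in GENCODE M21, from which positions are also taken.

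The main test was limma 3.58.1 (R 4.3.3) with a trend on log2(FPKM + 1), for the 12858 genes whose mean over the 8 libraries reached 1 FPKM, with Benjamini-Hochberg adjustment over these genes and a threshold of 0.05. Groups came from the sample titles. The test was tested on simulated data. The alternatives changed the pseudocount (0.1 or 0.5), the scaling (median of ratios, quantile or TPM), the filter (none or 5 FPKM), the variance model (no trend, robust, weighted libraries, or a block for the replicate number) and the threshold (0.1), or left out each library. Pairs of libraries left out were chosen after seeing the data. Leave-out fits kept the genes of the full set.

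The factors and the 15 other gene lists were chosen with earlier results of these data known. 4 list symbols were not in the table. Genes were named by rule: all 9 factors; per list, up to 4 called genes with the smallest p, or up to 2 with an unadjusted p under 0.05; Glul, Rlbp1, Gfap, Pax2, Mbp, Chat, Slc18a3 and Gjd2; and the 3 nearest profiles of the 3 most variable factors. Sox2ot, Pax6os1, Nfic, Mki67, Top2a, Otx2, Calb2, Cryaa, Rpe65, Lrat, Tyrp1, Ttr, Dct, Pmel and Rgr were named after their values were seen. Of the genes that the rule names, those read beside a result of the factors are described, and the others are not reported here. Tables were handled in Python 3.11.15 with pandas 2.3.3.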

Additional observations from a re-analysis of the deposited data

Results flagged for a closer look

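Among 94 groups of 4 libraries checked for a value far from the rest, chance flags about 1 in 20, and 1 was flagged. It was Crygs, a lens crystallin, at 5.35 FPKM in AAV2-scramble 4 against 0.0276 to 0.175 in the other 3 controls. None of the 9 factors was flagged.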

How the results depend on the processing

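The factors called in limma numbered 1 with all libraries and 0 to 1 with a single library left out. They numbered 0 without the variance trend, 0 with the replicate block and 2 at a threshold of 0.1 (Pax6 and Lhx2). Omitting a pair of libraries gave 0 for AAV2-scramble 1 and 2, 5 for AAV2-scramble 3 and 4, and 0 for AAV2-shCX36 1 and 4. Under median-of-ratios scaling, under quantile normalization and without AAV2-scramble 3, the 1 factor called was Lhx2 and not Pax6. Over all genes 612 were called, and 171 to 1162 with a single library left out. The count was 311 with no filter, 164 with the replicate block, 1153 at a threshold of 0.1, 942 and 3441 after omission of the first and the second control pair, and 106 after omission of AAV2-shCX36 1 and 4.

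Replicate numbers showed no common pairing of the samples. Deviations from the group means correlated across 12858 genes at 0.13, -0.30, 0.23 and -0.27 for numbers 1 to 4. Not every library correlated best with its own number. The deviations of the 4 libraries of a group sum to 0, so these values cannot settle whether the samples were paired. With the block the adjusted p of Pax6 was 0.147 and of Lhx2 0.137, and Rax, otherwise past the threshold in every alternative run, was at 0.0527.

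The log2 difference of Hes1 ran from -0.25 to 0.176 over the fits that left out one library, below 0 for omission of AAV2-scramble 3, AAV2-shCX36 1 or AAV2-shCX36 4. It was -0.24 after omission of the latter pair and -0.37 after omission of AAV2-scramble 3 and 4. Without AAV2-scramble 1 and 2, Nfia turned to 0.39, Nfib to 0.0517, Nfix to 0.155, Traf5 to 0.19, Smad3 to 0.38, Plod2 to 0.32 and Fndc1 to 0.38. The cause was not tested. Sox2 and Sox9 kept their sign and stayed short of the threshold in all 22 alternatives each. Hes5 was lower in all 16 alternatives run for it, at an exact p of 0.0286 without any one control and 0.0571 without any one AAV2-shCX36 library, and the depth of 15 to 46 fragments limits its precision.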

Other observations

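Markers of dividing cells were near the lower end of detection in every library, under the level at which genes were tested, so they are given as values. Mki67, a protein of cycling nuclei, was at 0.0100 to 0.0641 FPKM in AAV2-scramble and at 0.443, 0.138, 0.216 and 0.127 FPKM in AAV2-shCX36 1 to 4. Top2a, the topoisomerase of dividing cells, was at 0.0100 to 0.0637 FPKM in AAV2-scramble and at 0.861, 0.320, 0.361 and 0.305 FPKM in AAV2-shCX36 1 to 4. In neither gene did the groups overlap, and AAV2-shCX36 1 was the highest library for both. Both were picked after their values were seen, and 3.24% of the 12002 detected genes below the tested level were higher in all 4 hairpin libraries.

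Otx2, a factor of photoreceptors and bipolar cells, had 27.3 and 31.2 FPKM in AAV2-scramble 1 and 2 and 9.71 to 15.7 in the other 6 libraries (adjusted p = 0.214).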
